A study of Mus musculus with 4 samples.

Results

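The respiratory chain of the inner mitochondrial membrane was examined through 56 genes, 13 encoded by mitochondrial DNA and 43 by nuclear chromosomes. The members were chosen by gene name: all protein-coding genes of mouse mitochondrial DNA, written in capitals in the deposited files, and nuclear subunits of complexes I to IV with cytochrome c. All 56 were among the 35869 genes listed and among the 16849 genes tested (at least 1 TPM in 2 or more libraries). RNA-seq was performed on CD45+ cells, that is, leukocytes, isolated with magnetic beads from the stromal vascular fraction of epididymal white adipose tissue (eWAT). The mice were male WT C57BL/6 animals that were fed a normal diet (ND) or, from 8 weeks of age, a high-fat diet (HFD) for 12 weeks. There were 2 libraries per diet, and the number of mice behind each library is not given in the sources used here, so the p-values measure the spread between these libraries, which may be technical. The comparison asks which transcripts of these adipose leukocytes differed with the diet.

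Complex I (NADH dehydrogenase) and complex II (succinate dehydrogenase, also a TCA cycle enzyme) pass electrons to ubiquinone, complex III (cytochrome bc1) passes them to cytochrome c, and complex IV (cytochrome c oxidase) passes them to oxygen. Complexes I, III and IV pump protons as they do so, and the ATP synthase uses the gradient. Complexes I, III, IV and the ATP synthase are built from subunits of both genomes, whereas complex II is wholly nuclear encoded. In macrophages the chain is also known as a source of reactive oxygen species and, through succinate oxidation by complex II, as part of inflammatory signalling.

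The mitochondrial genes lie close together, and some share bases, which bears on how reads can be assigned to them. The shared bases are shown in capitals with 15 bases on each side, on the plus strand of mm10. ATP8 and ATP6 share 43 bases (chrM:7927-7969), ND4L and ND4 share 7 bases (chrM:10167-10173), and ND5 and ND6, which lie on opposite strands, share 14 bases (chrM:13552-13565).
ATP8 and ATP6, chrM:7912-7984: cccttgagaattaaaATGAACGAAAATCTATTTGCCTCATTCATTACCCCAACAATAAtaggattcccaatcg
ND4L and ND4, chrM:10152-10188: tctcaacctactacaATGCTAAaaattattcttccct
ND5 and ND6, chrM:13537-13580: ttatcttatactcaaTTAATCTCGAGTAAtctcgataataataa
A read over the bases shared by ATP8 and ATP6 or by ND4L and ND4 lies on both genes. How such reads were counted is not given in the sources used here. The values of ATP8 and ATP6 in particular may therefore not be fully separate, or may lack these reads. The libraries were made with a stranded kit, so reads of ND5 and ND6 can be told apart if the counting used strand, which is not given in the sources used here. In addition, 9 of the 13 mitochondrial genes have an annotated nuclear copy with at least 95% identity over at least 150 bases (GENCODE vM21). One stretch of chromosome 1 holds copies of ATP6, COX2, COX3, ND4L and part of ND4 that are 100% identical over the aligned length. None of these copies is listed in the deposited tables. Of the 43 nuclear genes, 10 have such a copy, and for Uqcr10 and Cox7c it is listed, at 5.6 TPM or less.

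The libraries differed in other ways that stand beside every value below. TPM is a transcript level that is corrected for gene length and sums to the same total in every library. From the spacing of low values, about 38200000 to 47500000 reads were counted per library, which gave at least 696 reads for every nuclear member (Uqcr10) and 5210 for every mitochondrial one (ND3). Leukocyte marker genes were present in all libraries, with a summed TPM of 5 genes of 3026 and 2960 in ND and of 2442 and 2562 in HFD. Those of macrophages summed to 17017 and 16455 in ND and to 14163 and 15000 in HFD, and moved both ways, since of 8 tested Adgre1 (log2 0.78) and Cd68 (log2 0.86) rose and C1qa (log2 -0.62), Csf1r (log2 -0.56) and C1qb (log2 -0.30) fell. Summed TPM in HFD was below that in ND for T cell markers (349 and 353 in ND, 53.4 and 64.5 in HFD), for B cell markers (116 and 114 in ND, 23.1 and 27.1 in HFD) and for neutrophil markers (70.0 and 93.4 in ND, 28.0 and 30.3 in HFD). Summed TPM was also lower in HFD for erythroid markers (1325 and 1293 in ND, 644 and 1105 in HFD) and for adipocyte markers (66.6 and 63.3 in ND, 39.5 and 25.6 in HFD), of which Cfd (log2 -4.07) and Pck1 (log2 -1.83) fell and Lep (log2 1.48) rose. Fibroblast markers summed to 522 and 561 in ND and to 2837 and 5686 in HFD. HFD replicate 1 stood apart for genes of spermatids (sperm precursors), at 7321 against 1932 to 2209 TPM in the other libraries. Of 5 brown adipocyte markers, 4 were at 1.7 TPM or less in every library, among them Ucp1, the uncoupling protein of brown fat, and Cox7a1, which muscle also expresses, was at 9.3 to 14.3 TPM. The part of these differences in the values of the respiratory chain was not tested, and in bulk RNA fewer cells of a type and less RNA per cell cannot be told apart.

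Respiratory chain transcripts differed little between HFD and ND. A DEG was a gene with a Benjamini-Hochberg adjusted p under 0.05 in limma and a difference of at least 1.5-fold, and 0 of the 56 members were DEGs, while 8.08% of all genes tested were DEGs higher in HFD and 10.3% were DEGs lower in HFD. At the same adjusted p without a limit on the fold, 9 members rose (Ndufs1, Ndufs4, Ndufv1, Ndufv2, Sdha, Sdhb, Sdhc, Cyc1 and Cycs) and 2 fell (Ndufa1 and Ndufa6), all nuclear. Over all genes tested, 13.2% rose and 14.1% fell by that rule. At an unadjusted p under 0.05, 18 members were higher and 3 lower, and of all genes tested 21.4% were higher and 21% lower. The log2 fold changes of the 56 genes, all on log2(TPM + 1), ran from -0.32 for Ndufa1 to 0.48 for Ndufs1. The 95% interval of limma, which is not adjusted for the number of genes, lay within 1.5-fold in either direction for 55 of the 56 genes (the exception was Ndufs1), and for 37.7% of all genes tested. These shares were not matched for level. The members were at 13.1 TPM or more in every library, while some other genes tested were at 0 TPM in a library.

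**Figure D1:**
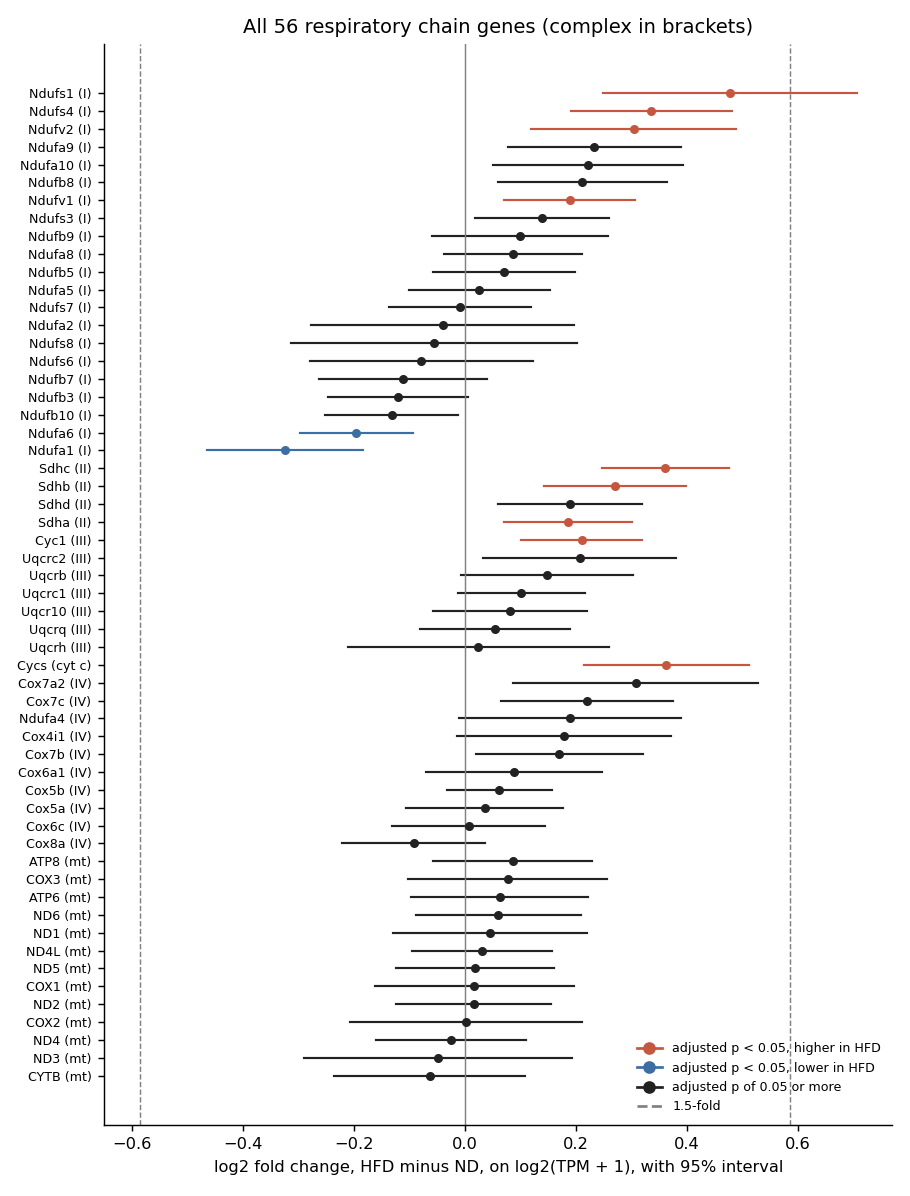
Log2 fold change of HFD against ND for each of the 56 genes, with points for estimates and bars for the 95% intervals of limma, ordered within each complex (mt, mitochondrially encoded). The estimates lie between -0.32 and 0.48, inside the dashed lines at 1.5-fold, and the 11 coloured genes passed an adjusted p of 0.05.

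These calls rest on small differences and on all 4 libraries. With either ND library left out, limma called 0 of the nuclear members in either direction (at an unadjusted p under 0.05, 6 higher and 1 lower without ND replicate 1, and 10 higher and 1 lower without ND replicate 2), and it called 0 DEGs among all genes (3862 and 4024 genes at an unadjusted p under 0.05). Without HFD replicate 1, 3 nuclear members were called higher and 1 lower, and without HFD replicate 2, 2 were called higher and 1 lower. Median-ratio scaling gave 1 higher and 1 lower, quantile normalization gave 1 higher and 4 lower, and a replicate block gave 0 and 0. The sign of all 11 was the same in each of these fits.

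The 13 mitochondrial genes encode core subunits of complexes I, III and IV and of the ATP synthase. In the fit of all 4 libraries 0 of the 13 were called, at the adjusted or at the unadjusted p. Both HFD values were above both ND values for ATP8 and ND6, and the groups overlapped for the other 11. Over all genes tested, both HFD values were above both ND values in 34.1% and below them in 32.8%. The log2 fold changes ran from -0.06 to 0.09 with a median of 0.02 (0.06 for all genes tested), and the 13 intervals lay between -0.29 (ND3) and 0.26 (COX3).

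The 7 complex I subunits of mitochondrial DNA form the core of its proton-pumping membrane arm. ND1, at the foot of that arm near the ubiquinone site, was at 4455.4 and 4335.1 in ND against 4338.6 and 4739.3 TPM in HFD. ND2 was at 3211.5 and 3202.6 in ND against 3134.5 and 3353.5 TPM in HFD. For both genes HFD replicate 2 was the highest library and HFD replicate 1 lay below the ND values or between them. ND4 was at 3457.2 and 3360.0 in ND against 3254.9 and 3446.7 TPM in HFD, and ND5 was at 2335.7 and 2477.5 in ND against 2392.9 and 2480.6 TPM in HFD. ND4L was at 2378.9 and 2499.5 in ND against 2457.0 and 2527.4 TPM in HFD. The groups of these 3 genes overlapped. ND3, the lowest of the 13, was at 1087.4 and 1000.1 in ND against 956.5 and 1064.4 TPM in HFD, with the groups overlapping. ND6 is transcribed from the other strand than the remaining 12. It was at 2856.0 and 2853.0 in ND against 2867.6 and 3088.6 TPM in HFD, a log2 difference of 0.06 (95% interval -0.09 to 0.21, limma adjusted p = 0.44).

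CYTB, the mitochondrial subunit of complex III, was at 4165.7 and 4053.9 in ND against 3766.4 and 4106.1 TPM in HFD, the lowest fold change of the 13 (log2 -0.06, 95% interval -0.23 to 0.11, limma adjusted p = 0.48). COX1, the catalytic subunit of complex IV and the highest of the 13 in every library, was at 6982.8 and 6808.9 in ND against 6660.0 and 7306.6 TPM in HFD. COX2, which takes electrons from cytochrome c, was at 4515.3 and 4338.8 in ND against 4200.2 and 4681.9 TPM in HFD. In COX1 and COX2 the 2 HFD libraries enclosed the ND libraries. COX3 was at 3683.2 and 3583.5 in ND against 3661.2 and 4011.1 TPM in HFD. Of the ATP synthase subunits, ATP6, part of the proton channel, was at 4930.9 and 4818.6 in ND against 4895.4 and 5296.0 TPM in HFD, and ATP8 was at 4686.0 and 4667.5 in ND against 4791.8 and 5143.4 TPM in HFD. ATP8 had the highest fold change of the 13 (log2 0.09, 95% interval -0.06 to 0.23, limma adjusted p = 0.28). Without HFD replicate 1, ATP8 (log2 0.14) and ND6 (log2 0.11) passed the adjusted p, and quantile normalization called 8 of the 13 higher, with log2 fold changes of the 13 between 0.02 and 0.30.

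The order of levels was nearly the same in every library. From the highest mean it ran COX1, ATP6, ATP8, ND1, COX2, CYTB, COX3, ND4, ND2, ND6, ND4L, ND5 and ND3, and the only exchange was between ND1 and COX2, with COX2 ahead in ND and ND1 ahead in HFD. The ranges over the 4 libraries did not meet between COX1 and ATP6, between COX2 and CYTB, between COX3 and ND4, between ND2 and ND6, between ND6 and ND4L, or between ND5 and ND3. The other neighbours had overlapping ranges. For each gene the highest library was 1.06 to 1.14 times the lowest. Among the 138 other genes with mean levels in the range of the 13 (1027 to 6940 TPM), 14 were DEGs higher and 26 DEGs lower in HFD, together 29.0%, with log2 fold changes from -3.07 to 6.12. The authors removed duplicate reads before counting, and the mitochondrial genes still held about 16.5 to 112 reads per base in the library with the most reads for each gene. The effect of that step on these levels was not tested.

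**Figure D2:**
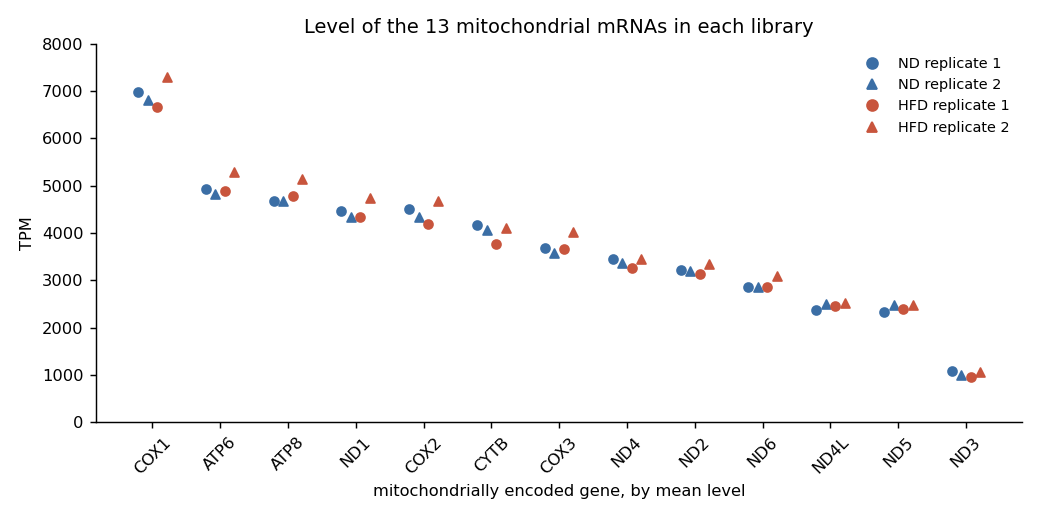
TPM of the 13 mitochondrially encoded genes in each library (blue, ND; red, HFD; circles, replicate 1; triangles, replicate 2), ordered by mean level. The 4 libraries lie within 1.14-fold of each other for every gene, and the levels step down from COX1 (6660.0 to 7306.6 TPM) to ND3 (956.5 to 1087.4 TPM).

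Summed over the 13 genes, mitochondrial mRNA was 4.87% and 4.80% of all TPM in ND and 4.74% and 5.12% in HFD, so the HFD libraries enclosed the ND libraries. The 43 nuclear members summed to 9240 and 9307 in ND against 9642 and 9981 TPM in HFD, 1.06 times the ND mean, and both HFD sums were above both ND sums. The ratio of the mitochondrial to the nuclear sum was 5.28 and 5.16 in ND and 4.91 and 5.13 in HFD. With 2 libraries against 2, an exact permutation test cannot give a two-sided p under 0.33, and these sums are given without a test.

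Among the 43 nuclear members, both HFD values were above both ND values for 30, below them for 6, and the groups overlapped for 7 (69.8% and 14.0% of the 43, against 34.1% and 32.8% of all genes tested). The median log2 fold change was 0.10 (0.06 for all genes tested). Median-ratio scaling brought this median to 0.06 (0.02 for all genes tested) and quantile normalization to 0.0057 (0.0025 for all genes tested), where 23 of the 43 were positive in place of 33.

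Of the 21 nuclear members of complex I, 4 rose and 2 fell at the adjusted p (28.6% called, against 27.3% of all genes tested). Ndufs1, the large iron-sulphur subunit of the NADH-oxidising module, was at 13.1 and 14.3 in ND against 19.8 and 19.1 TPM in HFD, the widest difference of all 56 genes. It rose 1.39-fold (log2 0.48, SE 0.08, 95% interval 0.25 to 0.71, limma adjusted p = 0.030). It was also the lowest of the 56 in level. An opposite-strand gene, Ino80dos, shares 489 exonic bases with it and stood at 7.7 and 7.1 in ND against 10.9 and 11 TPM in HFD, and reads of the 2 genes are kept apart only if the counting used the strand that the library kit marks. Ndufs4, an accessory subunit of the same module needed for a stable complex, was at 58.1 and 60.9 in ND against 75.4 and 75.3 TPM in HFD, and rose 1.26-fold (log2 0.34, SE 0.05, limma adjusted p = 0.025). Ndufa1, a small accessory subunit of the membrane arm encoded on the X chromosome, was at 175.2 and 185.1 in ND against 142.9 and 144.6 TPM in HFD. It fell to 0.80 of ND (log2 -0.32, SE 0.05, limma adjusted p = 0.025). In none of these 3 genes, chosen for the size of their differences, did the groups overlap. Both HFD values were above both ND values in 34.1% of all genes tested and below them in 32.8%.

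The 3 other calls in complex I are named because they passed the test, after their values were seen. Ndufv1 and Ndufv2 encode the flavin-bearing subunit and its iron-sulphur partner, which accept electrons from NADH. Ndufv1 was at 121.4 and 118.7 in ND against 138.0 and 136.0 TPM in HFD (log2 0.19, limma adjusted p = 0.049). Ndufv2 was at 62.3 and 58.5 in ND against 76.9 and 72.7 TPM in HFD (log2 0.30, limma adjusted p = 0.047). Ndufa6, an accessory subunit, was at 348.3 and 346.5 in ND against 306.3 and 300.3 TPM in HFD (log2 -0.20, limma adjusted p = 0.035). The 18 members outside Ndufs1, Ndufs4 and Ndufa1 spanned log2 -0.20 to 0.30, with HFD above ND for 10, below for 4 and overlapping for 4. In the matrix arm, which oxidises NADH and reduces ubiquinone, 4 of 12 members rose by limma's adjusted p and 1 fell (6 higher and 1 lower at an unadjusted p under 0.05), with HFD above ND for 7, below for 1 and overlapping for 4. In the membrane arm 0 of 9 rose and 1 fell (2 higher and 2 lower at an unadjusted p under 0.05), with HFD above ND for 5 and below for 4. For all genes tested, the shares were 13.2% higher and 14.1% lower at the adjusted p, and 21.4% and 21% at the unadjusted p. HFD was above ND for 34.1% of all genes tested and below for 32.8%. The median log2 fold changes of the arms were 0.08 and 0.07. The difference between the arms was not tested.

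Across the 21 nuclear members of complex I, the log2 fold change correlated with the coding length (Spearman rho = 0.72), which ran from 210 bases in Ndufa1 to 2181 bases in Ndufs1, and less with the exon length (rho = 0.59). For the coding length, rho over the 22 nuclear members outside complex I was 0.32, over 33 further subunits of complexes I, III, IV and the ATP synthase 0.18, and over 13127 genes tested with a coding length 0.03. These are descriptions across genes of the same 4 libraries, looked at after the values were seen, and genes are not independent replicates.

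In complex II, 3 of 4 subunits rose (75%, against 13.2% of all genes tested), and the values of the fourth were also higher in HFD. Sdhc, a membrane anchor that holds the haem and part of the ubiquinone site, was at 107.2 and 108.2 in ND against 139.9 and 137.4 TPM in HFD, and rose 1.28-fold (log2 0.36, SE 0.04, 95% interval 0.25 to 0.48, limma adjusted p = 0.015). Sdhb, the iron-sulphur subunit, was at 111.6 and 115.7 in ND against 136.2 and 138.5 TPM in HFD, and rose 1.21-fold (log2 0.27, SE 0.04, limma adjusted p = 0.029). Sdha, the catalytic flavoprotein, also passed the test, at 226.6 and 231.2 in ND against 256.9 and 264.3 TPM in HFD (log2 0.19, limma adjusted p = 0.048). Sdhd, the other anchor, did not pass it, at 175.3 and 182.1 in ND against 200.9 and 206.8 TPM in HFD (log2 0.19, limma adjusted p = 0.059). In all 4 both HFD values were above both ND values, which held for 34.1% of all genes tested. Summed, complex II was at 621 and 637 in ND against 734 and 747 TPM in HFD, 1.18 times the ND mean. Median-ratio scaling left 0 of the 3 calls (1 of the 4 at an unadjusted p under 0.05), with Sdhc at log2 0.32 (limma adjusted p = 0.053) and Sdhb at log2 0.23 (limma adjusted p = 0.13). Sdhc was called in 11 of the 15 fits run, the most of any member.

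Complex III showed 1 call among its 7 nuclear members (14.3% higher, against 13.2% of all genes tested). Cyc1, the haem protein that hands electrons to cytochrome c, was at 176.8 and 180.7 in ND against 207.1 and 206.8 TPM in HFD, and rose 1.16-fold (log2 0.21, SE 0.04, limma adjusted p = 0.035). Uqcrc2, a core protein, was at 138.5 and 150.5 in ND against 167.4 and 166.2 TPM in HFD (log2 0.21, limma adjusted p = 0.085). Uqcrb, which lies near the ubiquinone site, was at 317.2 and 338.6 in ND against 357.2 and 369.3 TPM in HFD (log2 0.15, limma adjusted p = 0.13). The groups did not overlap in these 3 genes. The other 4 (Uqcrc1, Uqcrh, Uqcrq and Uqcr10) had log2 fold changes of 0.02 to 0.10, with HFD above ND for 3. Together, HFD was above ND for 6 of the 7 (85.7%, against 34.1% of all genes tested).

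Cycs, the soluble electron carrier cytochrome c, was at 47.8 and 47.7 in ND against 60.3 and 63.1 TPM in HFD. It rose 1.29-fold (log2 0.36, SE 0.05, 95% interval 0.21 to 0.51, limma adjusted p = 0.023), with both HFD values above both ND values. It has 4 near-identical copies in the annotation, none of them listed in the deposited tables.

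In complex IV 0 of the 10 nuclear members were called by limma at the adjusted p, and 3 were higher at an unadjusted p under 0.05. For all genes tested, 13.2% rose and 14.1% fell at the adjusted p, and 21.4% were higher at the unadjusted p. Cox7a2, the subunit that is exchanged for a muscle isoform in heart, was at 173.1 and 193.9 in ND against 231.0 and 223.1 TPM in HFD (log2 0.31, 95% interval 0.09 to 0.53, limma adjusted p = 0.063). Cox7c, a small structural subunit, was at 371.0 and 387.8 in ND against 429.0 and 455.6 TPM in HFD (log2 0.22, limma adjusted p = 0.062). Each passed in 1 of 15 fits, in which genes with a mean TPM under 5 were left out (limma adjusted p = 0.049 and 0.0495), and the adjusted p reached 0.228 and 0.308 in the others. Ndufa4, once counted as a complex I subunit and now placed in complex IV, was at 403.6 and 380.6 in ND against 427.8 and 467.7 TPM in HFD (log2 0.19, limma adjusted p = 0.13). The other 7 ran from log2 -0.09 for Cox8a to 0.18 for Cox4i1, a regulatory subunit, with HFD above ND for 4, below for 1 and overlapping for 2. Together, HFD was above ND for 70% of the 10 and below for 10%, against 34.1% and 32.8% of all genes tested.

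**Figure D3:**
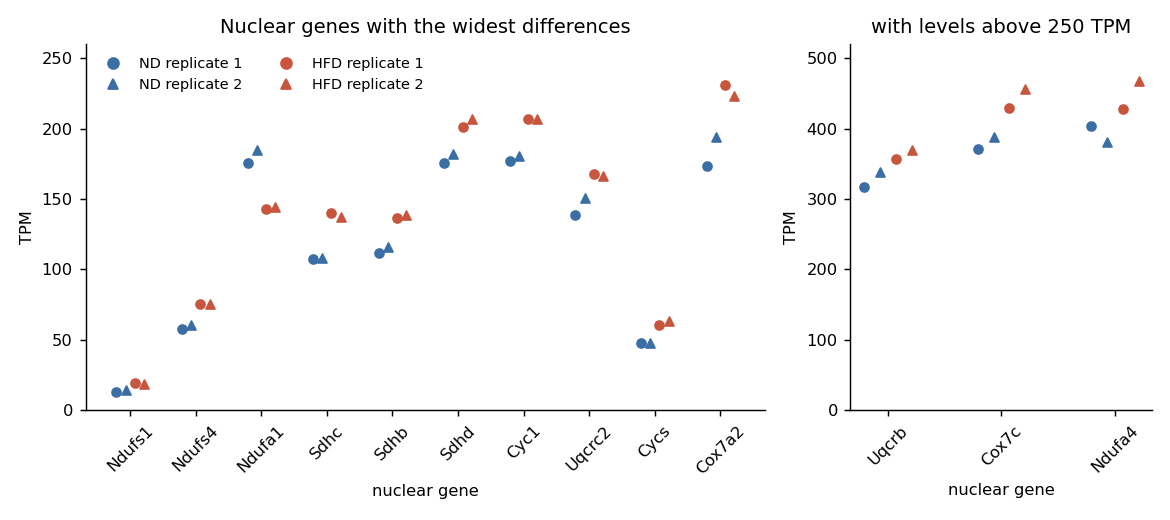
TPM of the 13 nuclear genes with the widest differences in each complex, in each library (blue, ND; red, HFD; circles, replicate 1; triangles, replicate 2), with genes above 250 TPM in a panel of their own. Both HFD values lie above both ND values in 12 genes and below them in Ndufa1 (142.9 and 144.6 TPM against 175.2 and 185.1 TPM). The genes were chosen for the size of their differences. For all genes tested, both HFD values lie above both ND values in 34.1% and below them in 32.8%.

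Nuclear respiratory genes are known targets of NRF-1, of the ETS factor GABP and of YY1. Promoter sequences from RefSeq (GRCm38.p6, 250 bases before to 50 bases after the start) matched 33 of the 56 members, with 34 promoters, and were searched on both strands for 3 cores, none of which holds another. The NRF-1 core GCATGCGC was found in 6 of the 34 (17.6%) and in 2.71% of all 32851 promoters, the ETS core CCGGAAG in 23.5% and 8.86%, and the YY1 core AAGATGGC in 14.7% and 2.75%. A match is a description of the letters and not a bound site. Of the 6 genes with the NRF-1 core, the windows of the 3 that passed the test and of Cox6a1 are shown, with the core in capitals and the distance taken from the RefSeq start. GENCODE vM21 starts Sdhb before its window.
Sdhb, chr4:140961206-140961235, plus strand, 54 bases before the start: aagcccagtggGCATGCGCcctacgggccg
Cycs, chr6:50566611-50566640, minus strand, 60 bases before the start: catgctagctcGCATGCGCgcgcacaaacc
Cox6a1, chr5:115349100-115349129, minus strand, 160 bases before the start: aggaacggggcGCATGCGCgctctcgctcc
Ndufa6, chr15:82354356-82354385, minus strand, 83 bases before the start: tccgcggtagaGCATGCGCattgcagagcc
Of these genes Sdhb and Cycs rose and Ndufa6 fell, as given above. Cox6a1, a complex IV subunit, was at 718.9 and 685.3 in ND against 723.2 and 770.3 TPM in HFD (log2 0.09, limma adjusted p = 0.31), and Ndufa8 (log2 0.09) and Uqcrc1 (log2 0.10) did not pass the test either.

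Genes known to control the chain were examined next. Of 8 tested regulators of nuclear respiratory genes 1 rose and 1 fell (25%, against 27.3% of all genes tested). Perm1, a muscle regulator of oxidative genes, was at 2.4 and 3.1 in ND against 9.1 and 8.5 TPM in HFD, and rose (log2 1.39, SE 0.14, limma adjusted p = 0.013). Nrip1, a corepressor of oxidative genes named after its value was seen, fell (5.6 and 6.3 in ND against 3.6 and 3.8 TPM in HFD, log2 -0.56, adjusted p = 0.037 in limma). Ppargc1a, the coactivator PGC-1 alpha, was listed at 0 in all 4 libraries. Of 10 genes that copy or transcribe mitochondrial DNA, 0 were called by limma at the adjusted p (1 was lower at an unadjusted p under 0.05), with log2 fold changes from -0.36 to 0.28.

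Other subunits of the chain had fold changes in a similar range. Of 15 further complex I subunits 2 rose (13.3%, against 13.2% of all genes tested) and none fell (log2 -0.21 to 0.38), of 3 further subunits of complexes III and IV 0 were called (log2 0.15 to 0.20, with 2 higher at an unadjusted p under 0.05), and of 17 nuclear ATP synthase subunits 4 rose (23.5%) and none fell (log2 -0.11 to 0.29). None of these 35 was a DEG. Of 9 subunit isoforms known from other tissues 0 were called by limma, at the adjusted or the unadjusted p. Some of them, such as Cox6b2, a testis isoform, at 10.7 and 8.8 in ND against 17.9 and 5.6 TPM in HFD, were highest in HFD replicate 1, the library with the highest spermatid genes. Of 44 tested assembly factors 3 rose and 1 fell (9.09% called, against 27.3% of all genes tested). Nubpl, which inserts iron-sulphur clusters into complex I, was the 1 DEG among them, at 5.1 and 5.8 in ND against 10.4 and 8.4 TPM in HFD (log2 0.68, limma adjusted p = 0.049), and it passed the adjusted p in 7 of 15 fits.

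Of 14 genes that handle mitochondrial RNA 3 rose (21.4%, against 13.2% of all genes tested), among them Trmt10c, part of the enzyme that cuts tRNAs out of mitochondrial transcripts, at 13.3 and 15.5 in ND against 24.6 and 23.8 TPM in HFD (log2 0.71, limma adjusted p = 0.023). Of 10 translation factors 3 rose (30%), among them Gfm2, which recycles mitochondrial ribosomes, at 6.8 and 7.3 in ND against 13.3 and 14.8 TPM in HFD (log2 0.90, limma adjusted p = 0.014). Of 74 mitochondrial ribosomal proteins 13 rose (17.6%) and 2 fell, and Mrpl44 was the 1 DEG, at 13.5 and 15.3 in ND against 32.5 and 31.1 TPM in HFD (log2 1.09, limma adjusted p = 0.0098). With a replicate block, none of Perm1, Nubpl, Trmt10c, Gfm2, Mrpl44 and Idh2 passed (limma adjusted p from 0.0537 for Idh2 to 0.141 for Nubpl).

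Among the other mitochondrial lists, pores, import and chaperones (61.1%) and TCA cycle enzymes (57.1%) had the highest shares of genes called, against 27.3% of all genes tested, and the difference was not tested. Of 18 genes for pores, import and chaperones 11 rose and none fell, and 4 were DEGs, namely Vdac2, Vdac1, Hspd1 and Slc25a4. Vdac2, a channel of the outer membrane, was at 284.2 and 288.4 in ND against 541.9 and 506.7 TPM in HFD (log2 0.87, limma adjusted p = 0.0063). Vdac1, the main channel of that membrane, was at 70.6 and 71.4 in ND against 116.6 and 118.0 TPM in HFD (log2 0.72, limma adjusted p = 0.0063). The count of 11 fell to 3 with a replicate block. Of 14 TCA cycle enzymes 5 rose and 3 fell. Idh2, the mitochondrial NADP-dependent isocitrate dehydrogenase, was the 1 DEG, at 79.9 and 77.8 in ND against 50.8 and 47.9 TPM in HFD (log2 -0.67, limma adjusted p = 0.010). Of 8 other dehydrogenases that reduce ubiquinone or feed those that do, 2 rose (25%), and of 3 supercomplex factors 1 fell.

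**Figure D4:**
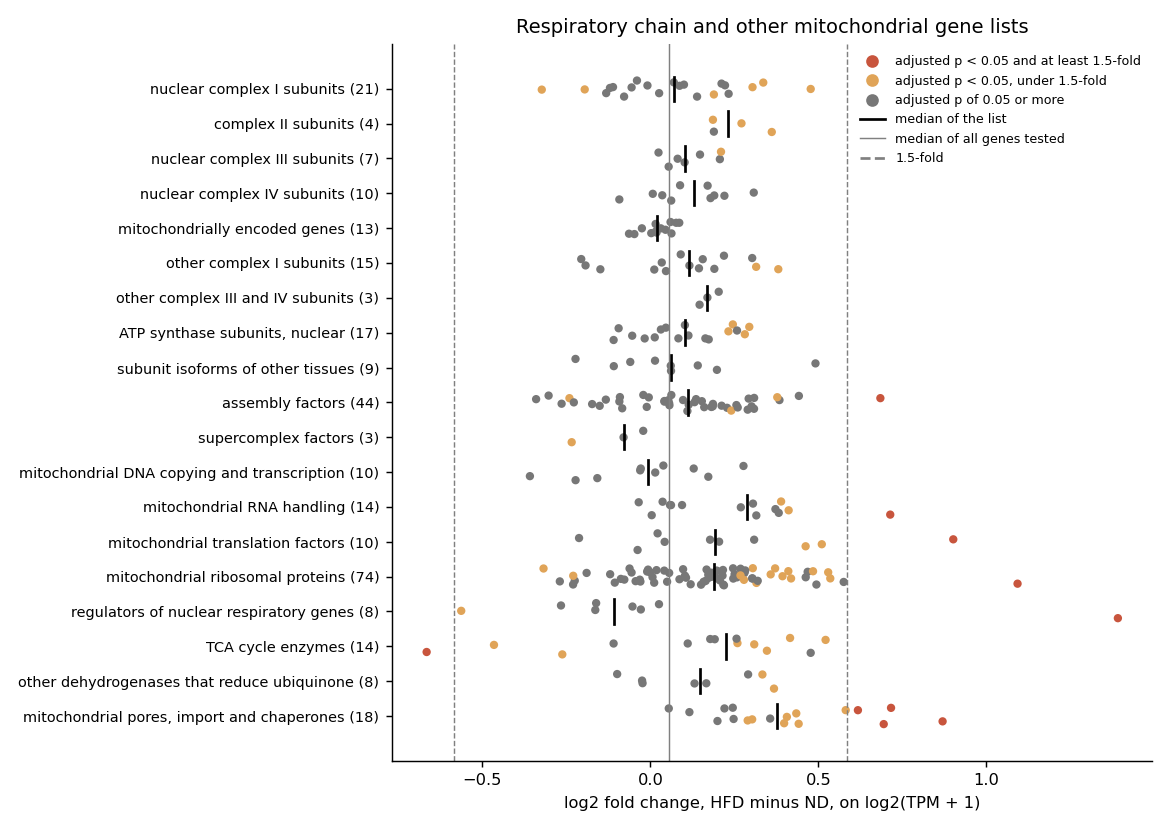
Log2 fold change of HFD against ND for the respiratory chain genes by complex and for the other mitochondrial gene lists, with each point a gene, the number of genes tested in brackets and the black bar the median of the list. The respiratory chain genes lie inside the dashed lines at 1.5-fold, and the pores, import and chaperones have the highest median (0.38).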

How the data were processed

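The authors trimmed reads with Trim Galore 0.4.2 and cutadapt 1.9.1, aligned them to mm10 with STAR 2.6.1e, removed duplicates with Sambamba, counted with featureCounts 1.6.2 and deposited TPM values, printed to 1 decimal. The annotation and the strand setting are not given in the sources used here. The deposited TPM were tested on log2(TPM + 1) with limma 3.58.1 in R 4.3.3 (eBayes with a variance trend, no covariate, all 4 libraries, 2 ND and 2 HFD) on genes with at least 1 TPM in 2 or more libraries, with Benjamini-Hochberg adjustment over all of them. The procedure was tested on simulated data. Fold changes on this scale understate those of low genes. Read numbers are approximate: the TPM of 1 read was taken from microRNA genes, and lengths from GENCODE vM21. Copies were searched with megablast of BLAST+ 2.17.0. The members and lists were chosen with earlier results of these data known. Named were the 13 mitochondrial genes, in each complex the 3 nuclear members with the largest absolute log2 fold change (no member was a DEG), and up to 2 DEGs per list. Deviations of libraries with the same replicate number showed no correlation across genes (-0.015). With 2 libraries per diet this is a single value, which cannot show whether libraries of the same number shared a batch.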

Additional observations from a re-analysis of the deposited data

How the results depend on the processing

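The fits of nuclear genes were recomputed under 14 other settings, those of the mitochondrial genes under 13, and the summed ratios under 5 (mitochondrial) and 6 (nuclear). The 11 members called kept their sign in all 14. The 13 mitochondrial genes are near 0 and carried calls only with quantile normalization and without HFD replicate 1. DEGs over all genes numbered 3097, against 2015 with a pseudocount of 5, 1778 without the filter and 812 with a replicate block, and 0 to 4232 with 1 library left out. No member was a DEG in any setting; with no limit on the fold 11 nuclear members were called. Nuclear members called higher (9 reported) numbered 5 without the filter, 4 without a variance trend, 0 with a replicate block, 1 with median-ratio factors, 1 with quantile normalization, 5 after rescaling without the 50 highest genes, and 0 to 3 with 1 library left out. Those called lower (2 reported) numbered 1, 0, 0, 1 and 4 under the first 5 of these settings, and 0 to 1 with 1 library left out. Complex II calls (3 reported) numbered 1 without the trend, 0 with a replicate block, 0 with median-ratio factors, 1 with quantile normalization, and 0 to 1 with 1 library left out. Mitochondrial calls (0 reported) numbered 8 with quantile normalization and 0 to 2 with 1 library left out. Pores, import and chaperones (11 reported) numbered 7 without the filter, 3 with a replicate block, 6 with median-ratio factors, and 0 to 7 with 1 library left out; their settings were chosen after seeing the data.

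The summed mitochondrial ratio of HFD over ND (1.02) became 0.990 with median-ratio factors and 0.979 to 1.06 with 1 library left out, and the nuclear ratio (1.06) became 1.03 with median-ratio factors. Signs of mitochondrial log2 fold changes turned as follows. With median-ratio factors they were -0.00053 for ND1, -0.030 for ND2, -0.014 for ND4L, -0.027 for ND5, -0.029 for COX1 and -0.043 for COX2. After rescaling without the 50 highest genes they were -0.016 for ND1, -0.045 for ND2, -0.030 for ND4L, -0.043 for ND5, -0.00072 for ND6, -0.044 for COX1 and -0.058 for COX2. With quantile normalization they were 0.058 for ND3, 0.21 for ND4 and 0.15 for CYTB. With 1 library left out, they ran from -0.019 to 0.11 for ND1, -0.033 to 0.064 for ND2, -0.12 to 0.029 for ND3, -0.066 to 0.016 for ND4, -0.0044 to 0.067 for ND4L, -0.024 to 0.061 for ND5, -0.050 to 0.084 for COX1 and -0.076 to 0.081 for COX2. The cause of these changes was not tested. With 1 library left out, the lone library of its diet was assumed to vary like the others. The depth is known only approximately, and counting error was at most about 3.79% per library for a member.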
